A study of Mus musculus with 6 samples.

Results

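The genes that move lactate and pyruvate through the mouse forebrain were examined as a set of 10, out of 23282 entries in the count tables. They were picked by name, with earlier results of these data known, and comprised the lactate transporters Slc16a1 and Slc16a7, the lactate dehydrogenase subunits Ldha and Ldhb, the mitochondrial pyruvate carrier subunits Mpc1 and Mpc2, and the pyruvate dehydrogenase kinases Pdk1, Pdk2, Pdk3 and Pdk4. All 10 passed the filter on low counts, as did 15239 entries in all. The tissue was a forebrain hemisphere, without olfactory bulb and cerebellum, from C57BL/6J males 8 to 10 weeks old, for which the labels name no engineered allele. Water avoidance stress (WAS) kept 3 mice for 1 h on a small platform surrounded by water, and the 3 control mice sat for 1 h on such a platform with no water around it. Each mouse gave 1 library by QuantSeq, which reads the end of polyadenylated transcripts, and total counts lay between 9248520 and 10502029.

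Lactate made from glucose is exported and taken up by monocarboxylate transporters, which in the brain lie on endothelium, glia and neurons, and lactate dehydrogenase interconverts lactate and pyruvate. Pyruvate enters the mitochondrion through a carrier built from a pair of subunits and is turned into acetyl-CoA by pyruvate dehydrogenase, which the pyruvate dehydrogenase kinases phosphorylate and switch off. Transfer of lactate from glia to neurons is a known feature of brain energy supply, and Pdk4 is known as a gene that fasting and glucocorticoids induce in many tissues.

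The groups follow the sample labels. The count columns of the libraries labelled WAS carry headings beginning with WC, and those of the libraries labelled control begin with WS, which the files do not define. If the labels had been exchanged, every direction below would turn around. Levels are given as counts scaled to a library total of 1000000 (CPM), and values of a group always follow the order of replicates 1, 2 and 3.

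The libraries differed in the markers of brain regions. The summed level of 8 striatal neuron markers, among them Ppp1r1b, Penk and Drd1, was 162 CPM in WAS replicate 1 and 375 CPM in WAS replicate 3, against 1953 CPM in WAS replicate 2 and 977 to 1329.5 CPM among the controls. The 7 thalamus and midbrain markers gave the reverse, with 516 and 476 CPM in those same libraries, 258 CPM in WAS replicate 2 and 244 to 249.6 CPM in the controls. Of these 7 markers, only Tcf7l2 and Th had every library labelled WAS above the controls, and WAS replicate 2 held 0 counts of Slc6a3 and Slc6a4. Choroid plexus markers, 7 in number, had a low sum in WAS replicate 1 (52.0 CPM) and control replicate 2 (16.5 CPM), against 927 to 1240.0 CPM elsewhere. Ttr was the most abundant of these markers. Otx2 did not follow the sum, with 11.3 CPM in WAS replicate 1 and 0.771 to 7.62 CPM in the controls. The 7 neuron markers summed to 4985 to 5689 CPM with WAS and 5807 to 6380.4 CPM in control, without overlap. Taken singly, 6 of them lay below 0 in log2 difference and 1 above, and only 2 did not overlap. Syt1 and Snap25 were the most abundant in this sum, and Stmn2, the next, had a log2 difference of -0.055. In bulk tissue, fewer cells of a type cannot be told apart from less RNA per cell. The sums of the other lists overlapped between the groups, with sums of 78.6 to 86.7 against 73.9 to 82.7 CPM for mural cells, 278 to 334 against 292 to 338 CPM for microglia, 88.8 to 144 against 59.9 to 104 CPM for meningeal fibroblasts and 1803 to 3032 against 1630.5 to 2124 CPM for erythroid cells. Single markers could still differ, since all 6 meningeal markers lay above 0 in log2 difference, with a median of 0.64 and 3 of them not overlapping, and so did all 6 erythroid markers, with a median of 0.36 and 0 not overlapping. Drd2, a striatal receptor gene, held 1 count in a single library and 0 in the other 5.

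None of the 10 genes passed the test for a difference between the groups. An unadjusted p under 0.05 by edgeR was reached by 0 of 10, where 7.24% of all entries tested reached it (1104 of 15239, with 3.85% higher and 3.4% lower in WAS), a rate that would give fewer than 1 gene in 10. The added demand of a 1.5-fold change was met by 0 of 10 and by 2.49% of all entries. After Benjamini-Hochberg adjustment over all entries 0 of 15239 passed 0.05 with edgeR, 22 with DESeq2 and 0 with limma, none of them one of the 10. The log2 fold changes, WAS relative to control, ran from -0.20 for Slc16a7 to 0.070 for Mpc2, with 4 above 0, 6 below and a median of -0.058. Over all entries the median was 0.00088 and 50.2% lay above 0. In 0 of 10 genes did all libraries of one group lie above those of the other, as against 12.2% of all entries (8.42% higher and 3.76% lower in WAS).

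The precision differed from gene to gene. For 8 of the 10 genes the 95% interval of the fold stayed inside a fold of 1.5 in either direction, that is between 0.667 and 1.5. It was narrowest for Ldhb, from 0.903 to 1.15, and widest for Pdk4, from 0.504 to 1.77. The interval of Slc16a7 reached from 0.588 to 1.28. Pdk4 and Slc16a7 had the fewest counts, between 16 and 63 in a library, and a decrease of 1.5-fold lay within both intervals. Summed over the 10 genes the level was 703 ± 27.2 CPM (SD, n = 3) with WAS and 694 ± 29.7 CPM (SD, n = 3) in control.

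**Figure D1:**
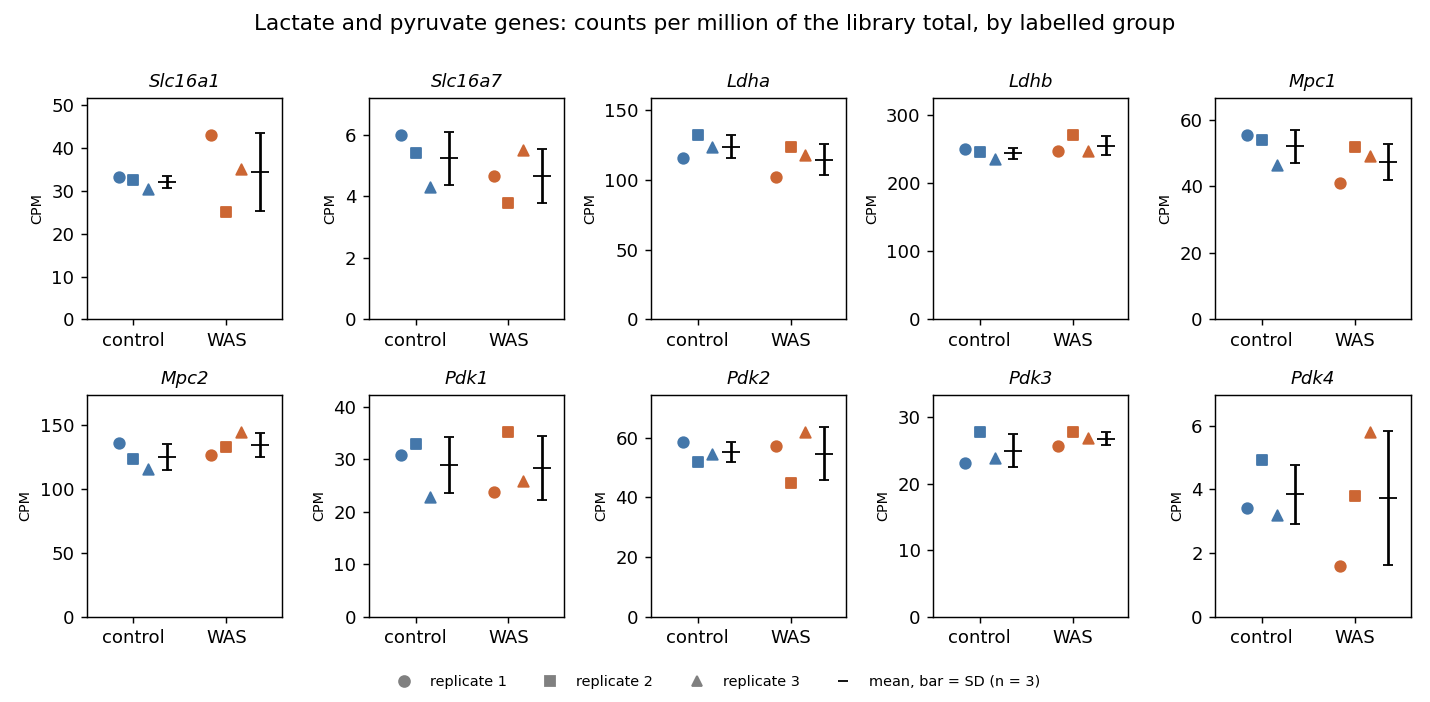
Level of each of the 10 genes in CPM of the library total (vertical axes from 0) in the 3 libraries labelled control and the 3 labelled WAS; symbols mark the replicate number and bars the mean with its SD. The groups overlap in every panel, and WAS replicates 1 and 2 lie at opposite ends for Slc16a1.

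**Figure D2:**
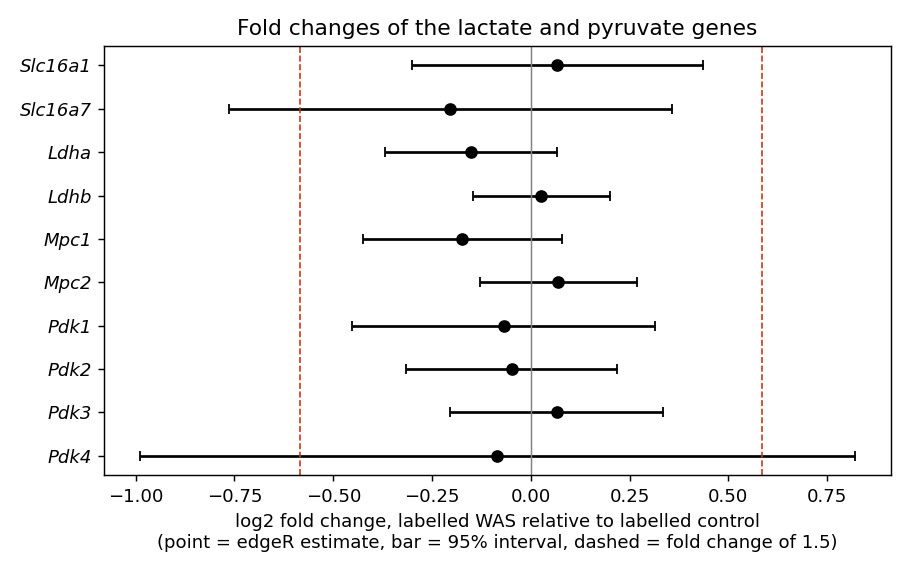
Log2 fold change of each gene in the libraries labelled WAS relative to those labelled control, with the 95% interval from edgeR's quasi-likelihood fit; dashed lines mark a fold of 1.5 in either direction. All 10 intervals include 0, and those of Slc16a7 and Pdk4 cross a dashed line.

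Slc16a1 (chr3:104638668-104658462, plus strand, mm10) encodes MCT1, a lactate transporter of brain endothelium, astrocytes and oligodendrocytes. Its level was 43.1, 25.0 and 35.1 CPM with WAS and 33.1, 32.6 and 30.4 CPM in control. The highest and the lowest library were both labelled WAS and enclosed all the controls. The means of 34.4 ± 9.09 and 32.0 ± 1.46 CPM (SD, n = 3 each) corresponded to 0.067 on the log2 scale, with a standard error of 0.17 and an edgeR adjusted p = 0.968. The coefficient of variation was 26.4% with WAS and 4.56% in control, where counting error alone would give 5.44% and 5.51%. The sign of the difference depended on single libraries, since leaving out WAS replicate 1 gave -0.13 and leaving out WAS replicate 2 gave 0.25, the latter with an edgeR adjusted p = 0.441.

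From highest to lowest, the 6 libraries stood in exactly the same order by Slc16a1 as from lowest to highest by the striatal marker sum. This was noticed after the values were seen, and 47 of the 15239 entries tested (0.308%) had that order, while 77 (0.505%) and 0 of 10 genes followed the sum in the same direction. Marker sums of the cells that carry MCT1 were 311 to 345 against 319 to 354 CPM for 10 endothelial markers and 3951 to 4090.0 against 3941 to 4046 CPM for 8 astrocyte markers. The 8 oligodendrocyte markers ran from 5452 CPM in WAS replicate 1, where Slc16a1 was highest, to 7488 CPM in WAS replicate 3. Single astrocyte markers differed among themselves, since WAS replicates 1 and 3 were the highest libraries for Aqp4, Gfap, Gjb6 and S100b, as for Slc16a1, but not for Aldh1l1, Gja1, Slc1a2 and Slc1a3. The part of the striatal difference, or of any of these cell types, in the Slc16a1 level was not tested. With WAS replicate 2, the lowest library, as the only one of its group, a choice made after the values were seen, the log2 fold change of Slc16a1 was -0.40.

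Slc16a7 (chr10:125219270-125389465, minus strand) encodes MCT2, the transporter of high lactate affinity that neurons carry. It held 47, 35 and 55 counts with WAS and 63, 56 and 43 counts in control, with WAS replicate 2 lowest and the groups overlapping. At 4.65 ± 0.862 against 5.23 ± 0.856 CPM (SD, n = 3 each) the log2 difference was -0.20, with a standard error of 0.26 and an edgeR adjusted p = 0.929. Its spread, 18.5% and 16.4%, was near the counting error of 14.8% and 13.6%. The ratio of Slc16a1 to Slc16a7 counts within a library overlapped between the groups too, at 9.23, 6.60 and 6.36 with WAS and 5.52, 6.04 and 7.05 in control (exact two-sided permutation p = 0.4, and 0.533 adjusted over 4 ratios).

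Ldha (chr7:46841475-46855627, plus strand) encodes the muscle-type subunit of lactate dehydrogenase, known to favour the making of lactate. Among the 10 genes it had the smallest unadjusted p, 0.155. Its level was 102, 124 and 117 CPM with WAS and 115, 132 and 124 CPM in control, with WAS replicate 1 the lowest library, control replicate 2 the highest, and the others mixed. Means of 114 ± 11.2 and 124 ± 8.48 CPM (SD, n = 3 each) corresponded to -0.15 on the log2 scale, with a standard error of 0.099 and an edgeR adjusted p = 0.815. The log2 difference stayed below 0 whichever library was left out, between -0.21 and -0.077.

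Ldhb (chr6:142490249-142507957, minus strand) encodes the heart-type subunit, known to favour the use of lactate. Of the 10 genes it varied least between libraries, at 246, 271 and 246 CPM with WAS and 249.9, 246 and 235 CPM in control. The highest library, WAS replicate 2, was 1.15 times the lowest, control replicate 3. The log2 difference was 0.027, with a standard error of 0.079 and an edgeR adjusted p = 0.968. The Ldhb counts are uncertain because 257 of the last 500 bases of its transcript, in stretches of at least 50 identical bases, also occur in Gm5514, and reads with several alignments were counted.

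The ratio of Ldha to Ldhb counts, which does not depend on the scaling of the libraries, was 0.414, 0.456 and 0.477 with WAS and 0.462, 0.538 and 0.526 in control. Control replicate 1 lay between WAS replicates 2 and 3, so the groups overlapped. Mean ratios of 0.449 ± 0.0322 and 0.509 ± 0.0412 (SD, n = 3 each) gave an exact two-sided permutation p = 0.2, and 0.4 adjusted over 4 ratios. With 3 libraries in each group this test cannot give less than 0.1.

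**Figure D3:**
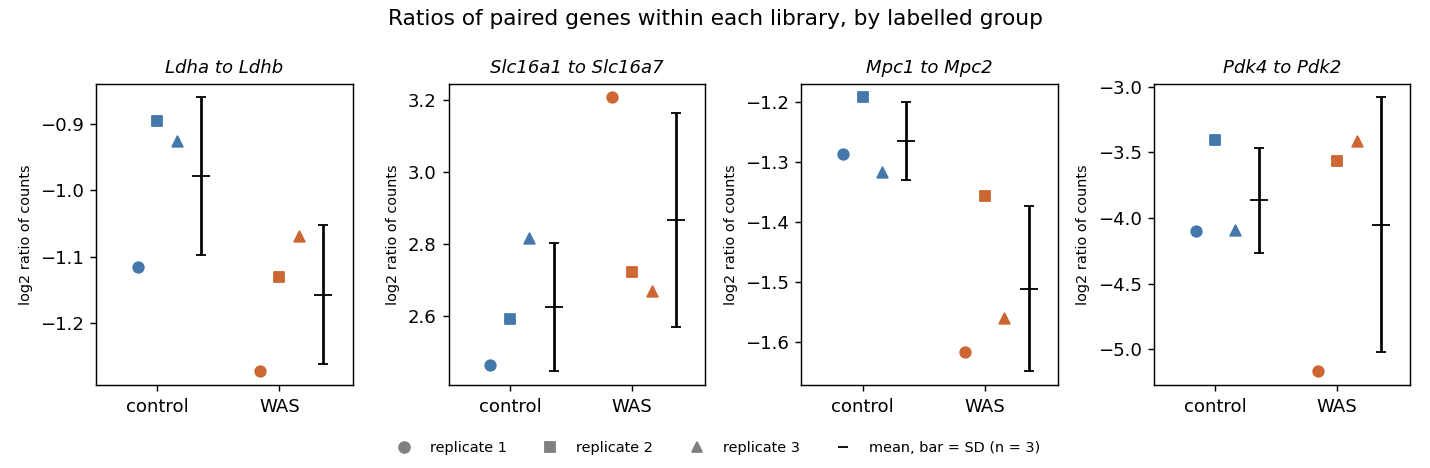
Log2 ratio of the counts of paired genes within each library (vertical axes not from 0) for the 3 libraries labelled control and the 3 labelled WAS; symbols mark the replicate number and bars the mean with its SD. Of the 4 ratios, only that of Mpc1 to Mpc2 separates the groups, with all 3 libraries labelled WAS below all 3 controls.

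Mpc1 (chr17:8282904-8297661, plus strand) and Mpc2 (chr1:165460637-165481214, plus strand) encode the subunits of the mitochondrial pyruvate carrier, which works as a complex of both. Mpc1 was measured at 41.1, 51.7 and 49.0 CPM with WAS and 55.5, 53.9 and 46.4 CPM in control, where control replicate 3 alone fell among the WAS values. Its log2 difference was -0.17, with a standard error of 0.11 and an edgeR adjusted p = 0.815. Mpc2 was measured at 126, 132 and 144 CPM with WAS and 135, 123 and 116 CPM in control, and control replicate 1 lay above WAS replicates 1 and 2. The log2 difference of Mpc2 was 0.070, with a standard error of 0.090 and an edgeR adjusted p = 0.934.

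The ratio of Mpc1 to Mpc2 was the one among 4 ratios in which the groups did not overlap. It was 0.326, 0.391 and 0.339 with WAS and 0.410, 0.438 and 0.401 in control. The mean log2 ratio differed by -0.25, with an exact two-sided permutation p = 0.1, the smallest that 3 libraries against 3 allow, and 0.4 after Benjamini-Hochberg adjustment over the 4 ratios. Whichever library was left out, the difference stayed between -0.32 and -0.19. Of the last 500 bases of the Mpc1 transcript, 168 also occur in Mpc1-ps or Gm8219, and 4930506C21Rik lies over its end on the opposite strand, while the sources used here do not say whether strand was used in counting. The neuron marker sum, too, was lower in every library labelled WAS (4985 to 5689 CPM) than in the controls (5807 to 6380.4 CPM). Of the 7 neuron markers taken singly, only 2 did not overlap, and 1 lay above 0. The thalamus and midbrain marker sum was higher in every library labelled WAS (258 to 516 CPM) than in the controls (244 to 249.6 CPM), in WAS replicate 2 by a small margin. The part of any of these in the ratio was not tested.

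Pdk1 (chr2:71873224-71903858, plus strand) is a pyruvate dehydrogenase kinase gene known to be induced by low oxygen. It was measured at 23.7, 35.2 and 25.8 CPM with WAS and 30.9, 32.9 and 22.9 CPM in control. WAS replicate 2 was highest and control replicate 3 lowest, with the groups mixed between them, and the spread of 21.7% and 18.4% stood above the counting error of 6.04% and 5.79%. The log2 difference was -0.069, with a standard error of 0.17 and an edgeR adjusted p = 0.968, and it turned to 0.040 without WAS replicate 1 and to 0.039 without control replicate 2.

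Pdk3 (chrX:93764607-93832201, minus strand), a further kinase of the family, varied little, at 25.7, 27.8 and 26.9 CPM with WAS and 23.1, 27.8 and 24.0 CPM in control. Control replicate 2 was the highest library, and the groups overlapped. Its log2 difference was 0.065, with a standard error of 0.12 and an edgeR adjusted p = 0.958.

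Pdk2 (chr11:95026258-95041354, minus strand), a kinase gene active in many tissues, was measured at 57.1, 44.9 and 62.0 CPM with WAS and 58.7, 52.0 and 54.7 CPM in control. WAS replicate 2 was the lowest of the 6 libraries for Pdk2, as it was for Slc16a1 and Slc16a7, while WAS replicate 1 lay among the controls and WAS replicate 3 above them. The log2 difference was -0.048, with a standard error of 0.12 and an edgeR adjusted p = 0.968, and without WAS replicate 2 it was 0.074. With this lowest library as the only one of its group, again chosen after the values were seen, it was -0.34.

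Pdk4 (chr6:5483351-5496309, minus strand) had the largest spread of the 10 genes. It held 16, 35 and 58 counts with WAS and 36, 51 and 32 counts in control. The highest library was 3.66 times the lowest in CPM, and both were labelled WAS. The coefficient of variation was 56.6% with WAS and 24.1% in control, above the counting error of 16.6% and 15.9%. Means of 3.73 ± 2.11 and 3.85 ± 0.928 CPM (SD, n = 3 each) corresponded to -0.085 on the log2 scale, with a standard error of 0.41 and an edgeR adjusted p = 0.981. No direction held, since the log2 difference was 0.28 without WAS replicate 1, 0.13 without control replicate 2 and -0.56 without WAS replicate 3. WAS replicates 1 and 3, the libraries with the least striatal marker RNA, were the lowest and the highest for Pdk4. Of the libraries with a low choroid plexus marker sum, WAS replicate 1 was the lowest of all for Pdk4 and control replicate 2 the highest control. The part of either difference in the Pdk4 level was not tested. The ratio of Pdk4 to Pdk2 counts overlapped between the groups, at 0.0278, 0.0843 and 0.0937 with WAS and 0.0584, 0.0944 and 0.0586 in control (exact two-sided permutation p = 0.8, unchanged by adjustment over 4 ratios).

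**Figure D4:**
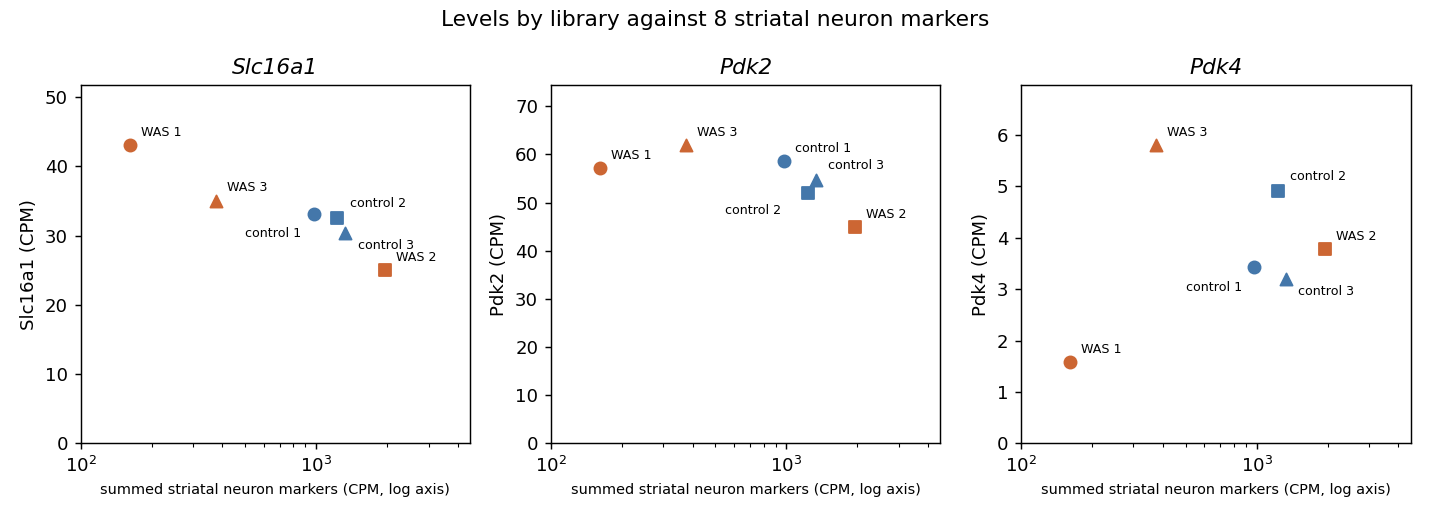
Levels of Slc16a1, Pdk2 and Pdk4 (CPM, vertical axes from 0) in each of the 6 libraries against the summed level of 8 striatal neuron markers (CPM, log axis). Slc16a1 falls from 43.1 CPM at the lowest marker sum to 25.0 CPM at the highest. Pdk4 has its lowest and highest value in the libraries with the least striatal signal.

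The other genes of the pathway and of the responses known to act on it were read from the same fit. Of 77 genes in 6 lists, 69 were tested and 5 had an unadjusted p under 0.05, where 7.24% of all entries did, and 0 passed after adjustment with edgeR. That number was 0 without WAS replicate 1, 10 without WAS replicate 2 and 1 without control replicate 2, where 6.57%, 13.7% and 4.09% of all entries had such a p. Of 17 genes of glucose uptake and glycolysis, 16 were tested, 8 of them above 0, with a median log2 difference of 0.011, and Eno1 was listed at 0 in every library. Aldoa, which encodes another aldolase, had a log2 difference of -0.040. Aldoc, the aldolase of astrocytes, stood at 816, 692 and 817 CPM with WAS and 699, 619 and 622 CPM in control, a log2 difference of 0.22 with a standard error of 0.089 (unadjusted p = 0.0283 and adjusted p = 0.634, edgeR). The groups overlapped through WAS replicate 2 and control replicate 1. Of the 8 astrocyte markers 5 lay above 0 and 3 below. S100b and Aqp4 had log2 differences of 0.32 and 0.36 with an unadjusted p under 0.05, whereas the glutamate transporters Slc1a2 and Slc1a3 had -0.10 and -0.11, and the sum of all 8 overlapped between the groups (3951 to 4090.0 against 3941 to 4046 CPM). The part of astrocyte RNA in the Aldoc level was not tested.

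Of the 9 genes of the pyruvate dehydrogenase complex, its phosphatases and pyruvate carboxylase, 0 had an unadjusted p under 0.05, 2 lay above 0, and the median log2 difference was -0.050. Pdha1, a subunit of the enzyme that the kinases act on, was at 143 ± 6.65 against 146 ± 9.95 CPM (SD, n = 3 each). Pdp1, a phosphatase that switches the enzyme on again, was at 189.9, 307 and 258 CPM with WAS and 318, 311 and 263 CPM in control. WAS replicate 1 stood below the other 5 libraries for Pdp1, and the log2 difference was -0.28, with a standard error of 0.15 and an edgeR adjusted p = 0.734. That library also had the lowest neuron and striatal marker sums (4985 and 162 CPM), and the part of either in the Pdp1 level was not tested.

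In the list of 12 other lactate and monocarboxylate genes, 8 were tested, 5 of them above 0, with a median of 0.12 on the log2 scale. Bsg encodes the chaperone that brings MCT1 to the cell surface, and its 127 ± 11.6 against 116 ± 9.72 CPM (SD, n = 3 each) overlapped. Gpt2, a mitochondrial enzyme that interconverts pyruvate and alanine, was at 29.7, 28.3 and 29.1 CPM with WAS and 26.5, 22.9 and 24.2 CPM in control. All 3 WAS values of Gpt2 lay above the controls, with a log2 difference of 0.21 and a standard error of 0.11 (unadjusted p = 0.0925, adjusted p = 0.739, edgeR). Hcar1, a receptor gene for lactate, held 35, 5 and 7 counts with WAS and 6, 3 and 4 counts in control (unadjusted p = 0.0345 and adjusted p = 0.658, edgeR). Only WAS replicate 1 stood out for Hcar1. That library had the lowest striatal and neuron marker sums and the highest sums for thalamus and midbrain (516 CPM) and meningeal fibroblasts (144 CPM). The part of any of these in the Hcar1 count was not tested.

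Genes known to respond to the stimuli that drive Pdk4, Pdk1 and Ldha in other tissues made up the remaining lists. Of 13 genes of the PPAR and FOXO fasting response, 12 were tested, 8 lay above 0 and 0 had an unadjusted p under 0.05. Its most abundant genes, the coactivator gene Ppargc1a and the transcription factor gene Foxo1, had log2 differences of 0.020 and 0.0035. Of 12 hypoxia targets, 11 were tested, 4 lay above 0 and 0 had an unadjusted p under 0.05, with -0.049 for the glucose transporter Slc2a1 and 0.21 for Ndrg1. Ndrg1 stood at 104, 96.3 and 105 CPM with WAS and 88.0, 75.2 and 93.4 CPM in control (edgeR adjusted p = 0.697). It was among 2 of the 11 tested targets that did not overlap, as against 12.2% of all entries. Of 16 glucocorticoid response genes, 15 were tested, 12 lay above 0 (50.2% of all entries did), and by the unadjusted p 2 were higher and 1 lower (3.85% and 3.4% of all entries). No gene of the 6 lists had such a p without WAS replicate 1. The 3 genes were the metallothionein genes Mt1 (0.21, edgeR adjusted p = 0.650) and Mt2 (0.23, 0.686) and the transcription factor gene Klf9 (-0.27, 0.667), with log2 differences in parentheses. Mt1 and Mt2 were highest in WAS replicate 1, like the astrocyte markers Aqp4 and Gjb6 but unlike the other astrocyte markers. The part of astrocyte RNA in the Mt1 and Mt2 levels was not tested. Klf9 is known as a gene that glucocorticoids raise. Fkbp5 and Sgk1, further glucocorticoid targets, had log2 differences of 0.17 (standard error 0.12) and 0.029 (standard error 0.086).

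The entries whose pattern over the 6 libraries was most like that of Ldha, by Pearson's r of log2 CPM among 9409 entries with a mean of at least 100 counts, were Rnf41 (0.986), Numb (0.983) and Sec22b (0.983). An r above 0.9 was reached by 142 of these entries, and the 6 libraries share their depth and tissue makeup across genes.

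Promoters were read for the E-box CACGTG, a palindrome, and so the same on both strands, that MYC and CLOCK bind. RefSeq windows on GRCm38.p6, from 250 bases before a transcript start to 50 after it, were matched for 9 of the 10 genes (13 windows), all but Slc16a7. The E-box was in 3 of these windows and in 7.15% of all 32851 windows. The stretches that hold it are shown from 20 bases before the first E-box to 20 bases after the last, in the direction of the gene and with the E-box in capitals, because they let the genes that share it be compared. They lie before the transcript start of Slc16a1 (chr3:104638444-104638489, plus strand), Ldha (chr7:46845639-46845781, plus strand, inside the annotated span of the gene, which has a further start upstream) and Pdk2 (chr11:95041472-95041517, minus strand).
Slc16a1: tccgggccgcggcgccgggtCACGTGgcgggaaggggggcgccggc
Ldha: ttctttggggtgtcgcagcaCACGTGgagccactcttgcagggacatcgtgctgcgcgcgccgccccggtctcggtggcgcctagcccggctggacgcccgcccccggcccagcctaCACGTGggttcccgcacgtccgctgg
Pdk2: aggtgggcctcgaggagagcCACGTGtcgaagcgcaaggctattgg
Ldha was the gene with a pair of E-boxes, at positions -145 and -48 from the RefSeq start used. The window with this pair also held the cyclic AMP response element TGACGTCA, likewise a palindrome, at position -12, which occurs in 1.79% of all windows. No 20-base stretch just after that start lay near the start of a GENCODE M21 transcript of Ldha, whereas such stretches did for Slc16a1 and Pdk2. The Ldha positions therefore rest on the RefSeq start alone. Ldha and Pdk2 each had a further window without an E-box. The log2 differences of the genes with the E-box were 0.067, -0.15 and -0.048 in the order shown, and none of the 3 passed the test between the groups.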

How the data were processed

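RNA from 3 mice labelled WAS and 3 labelled control was analysed, 1 library per mouse. The authors made the deposited read counts from QuantSeq 3′ libraries, read from one end over 75 bases, with Bowtie2 and Bedtools, counting unique and multiple alignments per gene symbol. The submitters' processing notes name genome build mm10, and the annotation and tool versions are not given in the sources used here. The authors' quantile normalization is not in these counts. Because reads come from transcript ends, levels were compared between libraries and not between genes.

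Levels are CPM of the library total. Tests used TMM scaling and the quasi-likelihood method (edgeR 4.0.16, R 4.3.3), WAS minus control without covariates. Entries were kept where log2 of the quantile-normalized count plus 1 averaged at least 2, and p-values were adjusted by Benjamini-Hochberg over all of them. A standard error is the size of the log2 fold change over the square root of F. Ratios of counts were compared by exact permutation. Alternatives were total-count scaling, DESeq2 1.42.0, limma 3.58.1 on quantile-normalized log2 counts, other filters, a replicate block and each library left out. The fit with WAS replicate 2 alone was chosen after seeing the data. The fit was tested on simulated data.

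The 10 genes, the 6 pathway lists and the 11 marker lists were chosen with earlier results of these data known. Named are the 10 genes, from each pathway list the most abundant pair and those with an unadjusted p under 0.05, the 3 entries most like Ldha, and from marker lists at most the 3 most abundant genes. Eno1, Fkbp5, Sgk1, Drd2, Th, Slc6a3, Slc6a4 and the astrocyte markers other than Slc1a2, Slc1a3 and S100b were named after their values were seen. Gene positions and shared sequence come from GENCODE M21, with the last 500 bases of a transcript compared with other genes' transcripts. Counting errors cover the sampling of reads only, since reads without molecular identifiers are not independent molecules. The labels give no batch.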

Additional observations from a re-analysis of the deposited data

How the results depend on the processing

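The number of lactate and pyruvate genes with an unadjusted p under 0.05 was 0 with total-count scaling, DESeq2, limma, 2 other filters, the replicate block and each library left out, and 2 (Slc16a1 and Pdk2) with WAS replicate 2 as the only library of its group, a fit chosen after seeing that this library was the lowest for both, whose spread came from the controls and in which 814 of 15241 entries (5.34%) had such a p. The number with an adjusted p under 0.05 was 0 in every one of these fits. Without WAS replicate 2, where 2084 entries (13.7%) had an unadjusted p under 0.05 and 491 an adjusted p under 0.05, the smallest p of the 10 genes was 0.0547, for Ldha. Over all entries, the counts with each library left out ran from 623 to 2084 at the unadjusted threshold and from 0 to 491 at the adjusted one, which 22 entries passed with DESeq2, 49 with the replicate block and 1 with WAS replicate 2 alone.

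With each library left out, the log2 fold change ran from -0.13 to 0.25 for Slc16a1, from -0.021 to 0.049 for Ldhb, from -0.26 to 0.040 for Pdk1, from -0.15 to 0.074 for Pdk2 and from -0.56 to 0.28 for Pdk4, so that these 5 directions depend on single libraries. The other 5 genes kept their direction, but the size moved. It ran from 0.0038 to 0.15 for Pdk3, from 0.013 to 0.12 for Mpc2 and from -0.24 to -0.085 for Mpc1. For Slc16a7 it ran from -0.34 to -0.078 and for Ldha from -0.21 to -0.077. With WAS replicate 2 alone, the log2 fold change was -0.40 for Slc16a1 and 0.25 for Pdk1, both reversed. The difference of the log2 ratio of Pdk4 to Pdk2 ran from -0.50 to 0.37, and that of the other ratios kept its sign (-0.25 to -0.12 for Ldha to Ldhb, 0.071 to 0.34 for Slc16a1 to Slc16a7). The pathway lists held 5 genes with an unadjusted p under 0.05 (7.24% of all entries), 1 with limma (5.7%), 3 with WAS replicate 2 alone (5.34%), and between 0 and 10 with each library left out (4.09% to 13.7%). The causes were not tested.

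Libraries of the same replicate number deviated together only weakly (Pearson's r across genes of 0.0662, 0.0846 and 0.0873), although each correlated best with its own number, and nothing in the labels says that a number marks a shared batch. With the replicate number as a block, 0 of the 10 genes and 9 genes of the pathway lists had an unadjusted p under 0.05, as did 1428 of all 15239 entries (9.37%). Depth limits Slc16a7, with at most 63 counts in a library, whereas the spread of Pdk4 was above its counting error.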
